A study of Mus musculus with 36 samples.

Results

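Expression of 10 transcription factor genes that specify natural killer (NK) cells or drive their maturation was followed through 36 mouse NK cell libraries. The genes were Tbx21, Eomes, Zeb2, Id2, Tcf7, Lef1, Gata3, Klf2, Irf8 and Ets1, taken from a given list by exact match of the gene symbol. Each symbol matched 1 row in every deposited table, so the set is 10 of 32940 genes in the table of sorted spleen subsets and 10 of 56923 genes in each of the other 3 tables.

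NK cells are innate lymphocytes that mature in the bone marrow and spleen, losing CD27 and gaining CD11b as they do so. Id2 binds E proteins and blocks their action on DNA, which keeps cells in the innate lymphoid lineage, while the T-box factors encoded by Eomes and Tbx21 (T-bet) establish NK identity and drive maturation. Tcf7 and Lef1 encode DNA-binding effectors of the Wnt pathway that are associated with immature or memory-like lymphocytes, and Zeb2 encodes a repressor that acts with T-bet in the last steps of maturation. Inhibitory receptors for MHC class I (Ly49C, Ly49I and NKG2A here) set how strongly an NK cell can respond, and NK cells that lack such receptors, or that mature in a host without MHC class I, are known to respond poorly.

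The study profiled functional against desensitized NK cells by RNA sequencing. From spleen, CD27-CD11b+ NK cells were sorted into TP cells (Ly49C+Ly49I+NKG2A+), SP cells (Ly49C-Ly49I+NKG2A-) and TN cells (Ly49C-Ly49I-NKG2A-), from wild-type (WT) C57BL/6 mice, which are B2m+/+, and from B2m-/- (KO) mice, which lack a subunit of MHC class I in every cell. Splenocytes of WT mice were also exposed to the calcium ionophore ionomycin or its vehicle for 22 h before NK cells were purified. Other splenic NK cells of WT mice spent 48 h in medium alone or on plates coated with antibodies, either anti-NKp46 plus anti-NKG2D (written NKp46+NKG2D) or anti-NKp46 plus anti-DNAM-1 (NKp46+DNAM-1), which engage activating receptors. A last group held CD27-CD11b+ NK cells from tumours of MC38, a mouse colon carcinoma line, here B2m-/-, grown under the skin of WT mice for 10 days. Each of these 12 groups had 3 biological replicates. All sorted spleen and tumour cells were thus CD27- and CD11b+ by gate, so that differences between them lie within the mature stage of the surface markers, whereas no such gate is given for the stimulated cells. Ages of the mice are not given in the sources used here, and the tumour group had no control group in its own table.

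The start sites of 3 of these genes are shown first, because Eomes and Id2 were called in opposite directions among the sorted subsets, Tbx21 is the T-box partner of Eomes, and each of the 3 has a single RefSeq start. Each window holds the 250 bases before the start, 5′ to 3′ on the strand of the gene, from RefSeq on build GRCm38.p6. Tbx21 lies on the reverse strand at chr11:97115332-97115581, Eomes on the forward strand at chr9:118477939-118478188 and Id2 on the reverse strand at chr12:25096093-25096342. Capitals mark matches to the motifs searched.
Tbx21: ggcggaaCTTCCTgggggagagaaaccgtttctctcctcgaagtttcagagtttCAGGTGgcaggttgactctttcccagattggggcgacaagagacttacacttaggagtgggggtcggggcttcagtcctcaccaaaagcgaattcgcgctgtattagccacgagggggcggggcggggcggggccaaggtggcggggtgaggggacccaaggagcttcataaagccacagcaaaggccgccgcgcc
Eomes: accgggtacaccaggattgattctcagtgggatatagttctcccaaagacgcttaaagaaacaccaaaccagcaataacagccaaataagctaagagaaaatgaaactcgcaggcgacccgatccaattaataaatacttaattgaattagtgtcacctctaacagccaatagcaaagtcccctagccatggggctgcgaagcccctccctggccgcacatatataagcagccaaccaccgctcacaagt
Id2: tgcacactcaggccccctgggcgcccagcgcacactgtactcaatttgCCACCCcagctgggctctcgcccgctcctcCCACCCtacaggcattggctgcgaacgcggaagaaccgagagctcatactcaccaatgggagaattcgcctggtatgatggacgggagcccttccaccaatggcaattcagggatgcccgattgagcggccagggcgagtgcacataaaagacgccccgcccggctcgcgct
The motifs were AGGTGT for T-box factors, CAGGTG for ZEB factors, CTTTGA for TCF and LEF factors, AGATAA for GATA factors, AGGAAG for ETS factors and CCACCC for KLF factors, each on both strands. The T-box and ZEB letters overlap, since they share AGGTG. In the Tbx21 window the ZEB letters began 196 bases before the start on the strand of the gene, and the ETS letters lay 243 bases before it on the opposite strand. In the Id2 window the KLF letters occurred at 202 and 172 bases before the start, and in the Eomes window none of the 6 motifs occurred. Over all 32536 RefSeq windows of this length, 11.89% held the T-box letters, 17.29% ZEB, 13.89% TCF/LEF, 9.97% GATA, 29.55% ETS and 28.14% KLF. Of the 10 genes, 9 matched the RefSeq table (Ets1 did not). Among these 9, which hold 17 windows, the KLF letters occurred in 6, ETS in 3, ZEB in 2, T-box in 1, TCF/LEF in 1 and GATA in 0. A gene counts here if any of its windows matched, and only 5 genes have a single window. These counts therefore cannot be set against the shares above, which are per window. These matches describe letters only, not bound sites.

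Levels are given in TPM, which divide reads by gene length and scale each library to a total, so that levels of different genes can be set side by side. The genes listed in the subset table summed to 934292 to 948786 TPM per library, and those in the other tables to 1e+06. Differences are log2 differences of TPM + 1, tested with limma over all genes of a table with Benjamini-Hochberg adjustment. Called means that the adjusted p fell below 0.05. The main fits did not pair libraries by replicate number, and calls with that number as a block stand in the last paragraph. TPM keep no sequencing depth, and between 12290 and 18096 genes were above 0 in a library. B2m, the deleted gene, stood at 2915 to 3420 TPM in WT and at 73.9 to 128 TPM in KO libraries. All 9 genes of a fixed NK cell list, which includes Eomes, exceeded 1 TPM in every library, and their sum was 20068 to 23704 TPM in the subset table. There 8 T cell genes summed to 11.1 to 43.9 TPM, and 1 to 5 of them reached 1 TPM in a library, with Cd3e, Cd4 and Cd8a at or under 1.25 TPM. Their sums were 24.6 to 26.0 TPM in WT TP and 39.8 to 43.9 TPM in KO TP cells. The genotypes were also apart in SP cells and overlapped in TN cells. The 8 B cell genes, mainly Ighm, summed to 135 to 161 TPM in WT TP and 277 to 299.6 TPM in WT TN cells, with Ms4a1 at or under 1.29 TPM. A list of 6 genes of type 1 innate lymphoid cells summed to 24.4 to 28.8 TPM in WT TP and 7.71 to 11.8 TPM in WT TN cells. The part of these lists in the subset and genotype differences was not tested. In the KO TP libraries, 4 of 5 plasma cell genes and 5 of 7 neutrophil genes exceeded 1 TPM, with sums of 224 to 468 and 61.0 to 218 TPM, against up to 51.1 and 5.85 TPM in any other subset library. The remaining neutrophil genes, Elane and Ly6g, were at or under 0.51 TPM in these KO TP libraries, and the remaining plasma cell gene, Sdc1, at or under 0.10 TPM. In such bulk samples, fewer cells of a type and less RNA per cell cannot be told apart.

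All 10 factors were detected in every sorted spleen library. The highest mean was that of Id2 at 1078 ± 30.3 TPM (SD, n = 3) in WT TP cells, and the lowest that of Gata3 at 50.4 ± 4.94 TPM in WT TN cells. The spread of a gene over the 6 subset means ran from 1.13-fold for Lef1 to 2.14-fold for Tcf7. Across the 11 comparisons of the subset table and the 4 of the cultured cells, 9 of 150 member tests were called, and they came from 3 genes, Id2, Eomes and Tcf7.

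**Figure D1:**
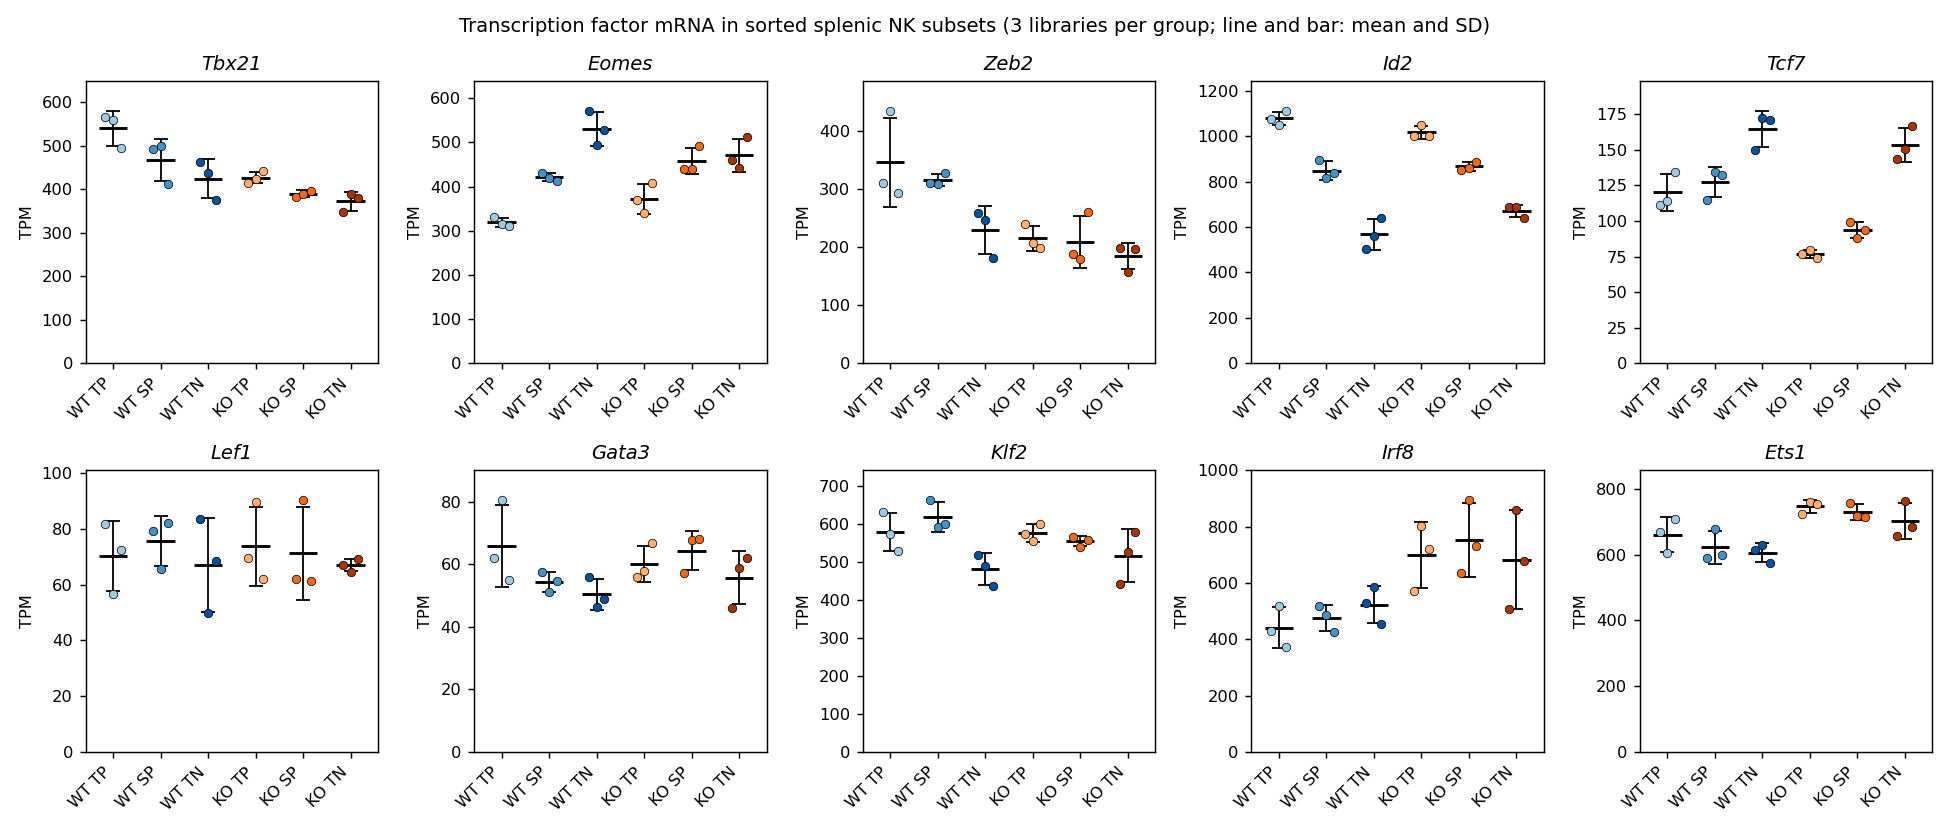
Level (TPM, linear axes from 0) of the 10 factors in sorted splenic NK subsets, 1 point per library, with the mean (line) and SD (bar) of 3 libraries per group. Id2 stepped down from TP to SP to TN in both genotypes, Eomes stepped up in WT, and Tcf7 was lowest in KO TP cells at 74.2 to 79.5 TPM.

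Id2 showed the clearest order among the subsets. In WT mice it measured 1075, 1049 and 1109 TPM in TP cells, 893, 815 and 836 TPM in SP cells and 501, 559.97 and 639.5 TPM in TN cells. In KO mice it measured 1000.4, 1049 and 1001 TPM in TP cells, 851, 860.2 and 888 TPM in SP cells and 688, 686 and 638 TPM in TN cells. The 3 subsets did not overlap in either genotype, whereas WT and KO cells overlapped in TP, SP and TN alike. Id2 was 1.91-fold lower in TN than in TP cells of WT mice (log2 difference -0.93, SE 0.07, adjusted p = 7.75e-07, limma) and 1.52-fold lower in KO mice (-0.60, SE 0.07, adjusted p = 0.000202). It was also lower in WT TN than in WT SP cells (-0.59, adjusted p = 0.00108). The step from TP to SP was not called in WT (-0.35, adjusted p = 0.0821) or in KO mice (-0.23, adjusted p = 1), nor was the step from SP to TN in KO mice (-0.37, adjusted p = 0.133). When only the 2 groups compared were fitted, the WT differences of TN from TP and from SP were no longer called (adjusted p = 0.0580 and 0.366), while the KO call was kept in all 12 alternatives run. Between genotypes, Id2 was not called in TN cells (log2 difference of KO from WT 0.25, adjusted p = 0.190), and leaving out WT TN replicate 3 brought that difference to 0.34 with an adjusted p of 0.0238.

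Eomes ran the other way. In WT mice it measured 330.5, 314 and 312 TPM in TP cells, 431, 418 and 413 TPM in SP cells and 570.4, 493 and 528 TPM in TN cells, with no overlap among the 3 subsets. In KO mice the range was narrower, with 369, 341 and 407 TPM in TP cells, 441, 441 and 491 TPM in SP cells and 459, 441 and 512 TPM in TN cells, and the last pair overlapped. Eomes was 1.66-fold higher in TN than in TP cells of WT mice (log2 difference 0.73, SE 0.08, adjusted p = 4.82e-05), a call kept in all 12 alternatives run. In KO mice the same difference was 0.34 (SE 0.08, adjusted p = 0.0969). SP cells lay between, at 0.40 over TP in WT (adjusted p = 0.0639) and 0.30 over TP in KO mice (adjusted p = 0.485), and WT TN cells lay 0.33 over WT SP cells (adjusted p = 0.110). Between genotypes, KO TP cells lay 0.22 over WT TP cells (adjusted p = 0.262). In order, Eomes was lowest in WT TP, then KO TP, WT SP, KO SP, KO TN and WT TN cells. Neighbours overlapped only between KO SP and KO TN and between KO TN and WT TN.

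Tbx21 differed less between subsets, and no difference was called. WT TP cells held 566, 558 and 494 TPM, WT SP cells 492, 498 and 412 TPM and WT TN cells 461, 437 and 375 TPM. KO cells held 415, 424 and 442 TPM in TP, 381, 389.98 and 397 TPM in SP and 347, 389 and 380.3 TPM in TN. WT TN libraries were all under the WT TP libraries (log2 difference -0.35, adjusted p = 0.0738), and KO TP libraries were all under the WT TP libraries (-0.34, adjusted p = 0.0825). In SP cells the 2 genotypes also did not overlap (KO minus WT -0.26, adjusted p = 0.227), whereas they did in TN cells. WT SP lay under WT TP cells by less (-0.21, adjusted p = 0.588), as did KO TN under KO TP cells (-0.20, adjusted p = 0.747). With each library rescaled by the median of ratios, the difference between genotypes in TP cells became -0.38 and was called (adjusted p = 0.0403).

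Zeb2, the partner of T-bet in terminal maturation, had its highest means in WT TP and SP cells, and no Zeb2 difference was called. It measured 310.02, 433 and 292 TPM in WT TP cells, 309, 309 and 326 TPM in WT SP cells and, for WT TN, 259, 247 and 182 TPM. The KO values were 239, 207 and 198 TPM in TP cells, 188, 178 and 259 TPM in SP cells and, for TN, 199, 158 and 196 TPM. KO and WT libraries did not overlap in TP or in SP cells, but overlapped in TN cells. The differences of KO from WT were -0.66 in TP (SE 0.17, adjusted p = 0.0622) and -0.61 in SP cells (SE 0.17, adjusted p = 0.0967), neither called. Median-of-ratios scaling called the first (-0.71, adjusted p = 0.0479), and leaving out KO SP replicate 3 called the second (-0.78, adjusted p = 0.0412). WT TN cells were under WT TP cells (-0.58, adjusted p = 0.116) and under WT SP cells (-0.47, adjusted p = 0.251) without a call.

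Tcf7 was the only one of the 10 with a called difference between genotypes. WT TP cells held 111, 114 and 135 TPM, WT SP cells 115, 134 and 132 TPM and WT TN cells 149.8, 172 and 171 TPM. KO TP cells held 76.5, 79.5 and 74.2 TPM, KO SP cells 99.2, 87.96 and 93.4 TPM and KO TN cells 143, 151 and 167 TPM. KO TP and KO SP cells were thus under all WT libraries, whereas KO TN and WT TN cells overlapped. Tcf7 was 1.55-fold lower in KO than in WT TP cells (log2 difference -0.63, SE 0.10, adjusted p = 0.00264) and 1.35-fold lower in SP cells (-0.44, SE 0.10, adjusted p = 0.0457). Within KO mice it was 1.99-fold higher in TN than in TP cells (0.99, SE 0.10, adjusted p = 3.45e-05) and higher in TN than in SP cells (0.71, adjusted p = 0.0133). Within WT mice it was 1.37-fold higher in TN than in TP cells (0.45, SE 0.10, adjusted p = 0.0376). The differences of WT TN from WT SP (0.37, adjusted p = 0.155) and of KO SP from KO TP (0.28, adjusted p = 1) were not called.

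The rise of Tcf7 from TP to TN in KO mice was called in all 12 alternatives run, while the other Tcf7 calls were less stable. The genotype difference in TP cells was lost only when these 2 groups alone were fitted (adjusted p = 0.0742). In SP cells the call ended without WT SP replicate 2 or 3 or without KO SP replicate 1, 2 or 3 (adjusted p between 0.0845 and 0.205), without the trend (0.0885) and with the 2 groups alone (0.158). The WT difference of TN from TP ended without WT TP replicate 1 or 2 or WT TN replicate 2 or 3 (adjusted p between 0.0966 and 0.159), and also without the intensity trend (0.0819) or with the 2 groups alone (0.288). The KO difference of TN from SP ended without KO SP replicate 2 (adjusted p = 0.0804) or KO TN replicate 3 (adjusted p = 0.107), without the trend (0.0739) and with the 2 groups alone (0.265). Plasma cell and neutrophil transcripts were higher in KO TP than in all other subset libraries, as were 7 genes of monocytes and macrophages (23.6 to 56.5 TPM in KO TP against at most 14.6 TPM elsewhere), and their part in the Tcf7 difference in TP cells was not tested. In SP cells the neutrophil genes summed to at most 5.85 TPM in KO and 1.11 TPM in WT libraries. The plasma cell genes there summed to at most 11.2 TPM in KO and 18.0 TPM in WT libraries. The part of such transcripts in the Tcf7 difference of SP cells was not tested either.

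Lef1, the relative of Tcf7, showed no order among the subsets. Its libraries ran from 49.8 to 90.4 TPM over all 6 subsets, every neighbouring pair of group ranges overlapped, and no Lef1 comparison in this table reached an unadjusted p under 0.05. Gata3, a zinc finger factor needed for NK cells to mature in and leave the bone marrow, ran from 46.1 to 80.6 TPM. Its mean was 65.9 ± 13.2 TPM in WT TP and 50.4 ± 4.94 TPM in WT TN cells, with libraries at 61.97, 80.6 and 55.05 against 55.9, 46.3 and 48.95 TPM, which overlapped (log2 difference -0.37, adjusted p = 0.322).

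Klf2 encodes a zinc finger factor that keeps lymphocytes quiescent and supports the receptors they use to circulate. It was 631, 575 and 529.8 TPM in WT TP cells, 664, 593 and 599 TPM in WT SP cells and, for WT TN, 519.55, 489 and 438 TPM. The WT TN libraries lay under both other WT groups without a call (-0.26 against TP, adjusted p = 0.228, and -0.36 against SP, adjusted p = 0.127). In KO cells Klf2 ran from 443 to 602 TPM and the 3 subsets overlapped.

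Irf8, an interferon regulatory factor needed for NK cell maturation and antiviral responses, had the largest positive differences of KO from WT cells among the 10. WT libraries held 429, 518 and 373 TPM in TP cells, 517, 486 and 426 TPM in SP cells and, for TN, 529, 586 and 455 TPM. KO libraries held 572, 803 and 719 TPM in TP cells, 634, 895 and 730.4 TPM in SP cells and, for TN, 508, 860.3 and 677 TPM, so the genotypes separated in TP and SP but overlapped in TN cells. None of these differences was called (0.66 in TP, SE 0.18, adjusted p = 0.0870, and 0.65 in SP, SE 0.18, adjusted p = 0.0988). The KO libraries also had more of the 10 immediate early and heat shock genes that mark handling stress, at 345 to 456 TPM in sum against 278 to 347 TPM in WT, and the part of this in the genotype differences was not tested.

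Ets1 acts early in NK development. It measured 724, 760.3 and 755 TPM in KO against 668, 605 and 709 TPM in WT TP cells, and 757, 718 and 713 against 588, 678 and 599 TPM in SP cells. In TN cells it measured 657, 764 and 685 TPM in KO against 615, 629 and 573 TPM in WT mice. The 2 genotypes did not overlap for Ets1 in any subset, yet no difference was called (0.18, 0.23 and 0.21, adjusted p = 0.363, 0.189 and 0.315).

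The counts of called members are set beside the share of all genes called in the same comparison. Between TN and TP cells of WT mice, 3 of 10 members were called, Eomes and Tcf7 higher and Id2 lower, where 1.31% of 12018 genes tested were called. In that comparison 7 members had an unadjusted p under 0.05, against 12.5% of all genes, and the groups of 6 members did not overlap, against 14.6% of all genes. The median log2 difference of the 10 was -0.19, beside -0.01 over all genes. In KO mice the same comparison called 2 of 10 (background 0.524%), and 4 members did not overlap (background 13.2%). TN against SP called Id2 in WT (background 0.383%) and Tcf7 in KO mice (background 0.0416%).

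SP against TP called 0 of 10 members with limma in either genotype, where 0.191% of genes were called in WT and 0.200% in KO mice. In each of these 2 comparisons 3 members had an unadjusted p under 0.05, against 7.71% of all genes in WT and 2.93% in KO mice. The groups did not overlap for 2 members in WT (background 10.6%) and for 4 in KO mice (background 10.9%). KO against WT called Tcf7 alone among the members in TP cells (background 1.59%) and in SP cells (background 1.35%). The genotypes did not overlap for 6 members in TP cells (background 18.3%), for 7 in SP cells (background 18.9%) and for 1, Ets1, in TN cells (background 13.7%). In TN cells limma called 0 of 10 (background 0.716%), with 2 at an unadjusted p under 0.05, against 10.5% of all genes.

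**Figure D2:**
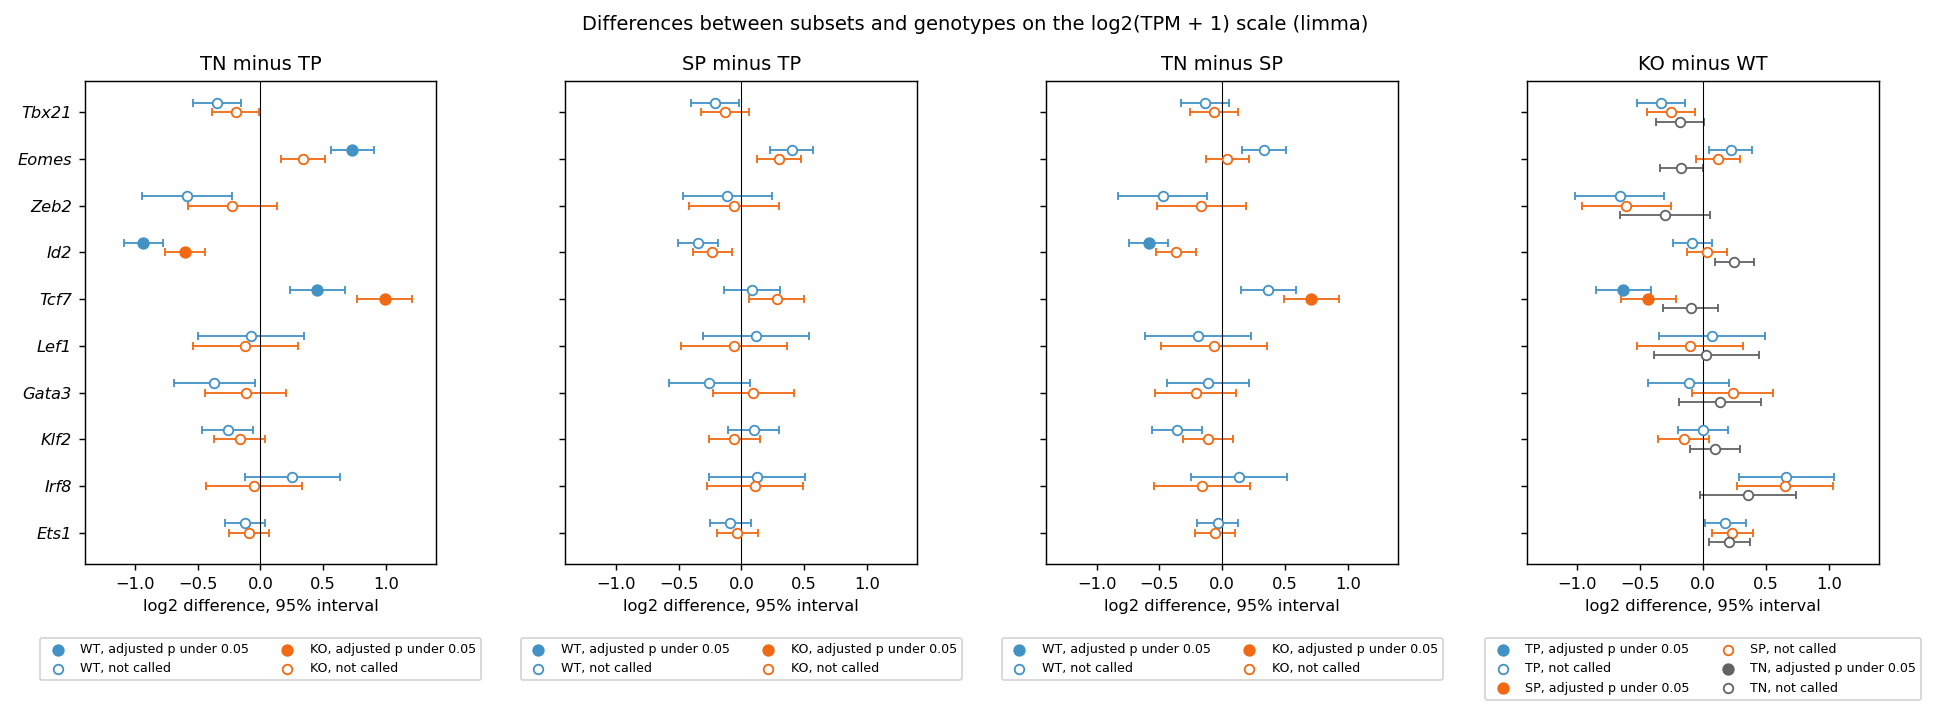
Log2 difference of TPM + 1 for each factor with its 95% interval from limma, for TN minus TP, SP minus TP, TN minus SP (WT in blue, KO in orange) and KO minus WT (TP in blue, SP in orange, TN in grey). Filled points have an adjusted p under 0.05, and they belong to Id2, Eomes and Tcf7.

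Whether the step from TP to TN differed between genotypes was tested as an interaction. The step of Tcf7 was larger in KO mice by 0.54 on the log2 scale (SE 0.15), that of Eomes was smaller (-0.39, SE 0.12), and the fall of Id2 was smaller (0.33, SE 0.10). None passed the adjustment with limma (adjusted p = 0.451, 0.484 and 0.620), and these 3 were the members with an unadjusted p under 0.05. Over all genes, 0.0250% were called in this interaction and 6.27% had an unadjusted p under 0.05. For the step from TP to SP, limma called 0 members and 0 had an unadjusted p under 0.05 (background 0.0166% and 4.41%).

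Ratios of paired factors put these levels on 1 scale per library. The ratio of Eomes to Tbx21 TPM was 0.592 ± 0.0345 for TP, 0.907 ± 0.0861 for SP and 1.26 ± 0.141 for TN cells of WT mice (SD, n = 3), and the 3 groups did not overlap. In KO mice TP cells had 0.872 ± 0.0609, SP cells 1.17 ± 0.0564 and TN cells 1.27 ± 0.116, so that KO TP cells lay 1.47-fold above WT TP cells, with no overlap, while the TN cells of the 2 genotypes overlapped. The ratio of Tcf7 to Id2 was 0.111, 0.151 and 0.291 in WT TP, SP and TN cells and 0.0755, 0.108 and 0.230 in the KO subsets. It was 2.62-fold higher in TN than in TP cells of WT mice and 3.04-fold higher in KO mice. KO libraries lay under WT libraries of the same subset in all 3 subsets. These ratios restate the levels of their genes and are given without a test.

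**Figure D3:**
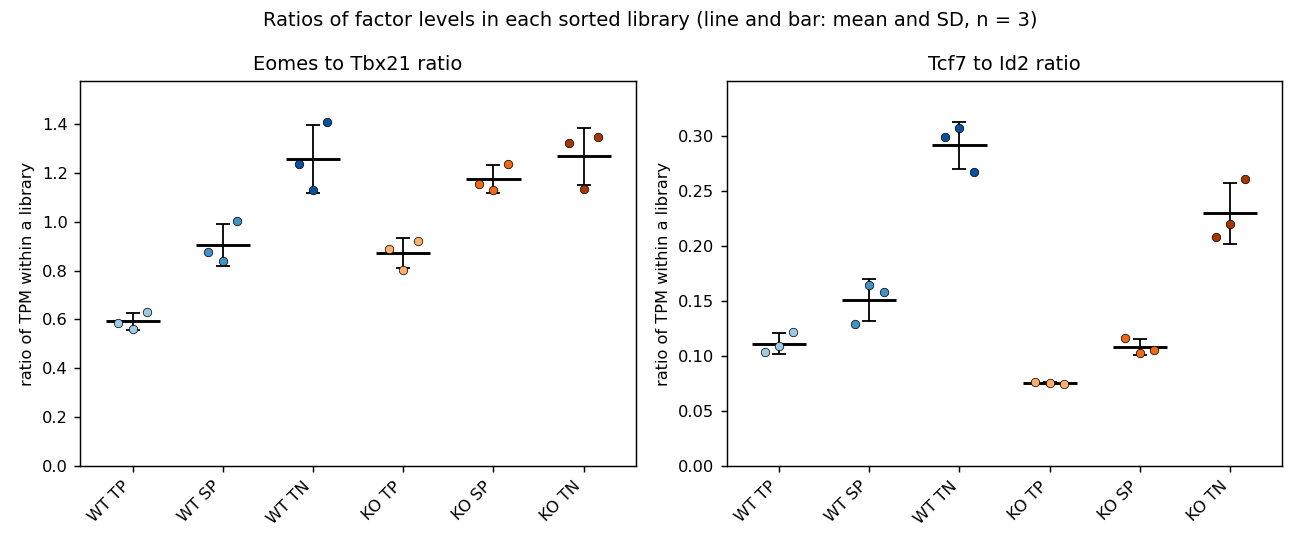
Ratio of Eomes to Tbx21 (left) and of Tcf7 to Id2 (right) from TPM of the same library, 1 point per sorted library, with mean and SD of 3 per group. Both ratios step up from TP to TN in each genotype, from 0.592 to 1.26 in WT cells for Eomes to Tbx21.

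Across the 18 sorted libraries some members ran together and others in opposition. Pearson's r of log2(TPM + 1) was -0.88 between Eomes and Id2, -0.72 between Tcf7 and Id2, 0.80 between Tbx21 and Zeb2, 0.63 between Irf8 and Ets1 and -0.63 between Irf8 and Zeb2. These values describe libraries that share genotype and subset labels. Among 9286 other genes whose mean reached 5 TPM, the most like Tcf7 was Rassf2 (r = 0.93). Those most like Tbx21 were Itgb2 (0.92), an integrin subunit, and Plekho2 (0.91), and those most like Eomes were Cyp17a1 (0.93) and Igf2r (0.92). Id2 ran closest with Kcnj8 (0.92) and Hs3st3b1 (0.92), Zeb2 with Cd48 (0.87) and Ndfip2 (0.87), and Irf8 with Sh2d2a (0.91) and Dhrs3 (0.88). Klf2 ran closest with Prf1 (0.85), which encodes perforin, and Arhgdia (0.84), Ets1 with Psap (0.88) and Ftl1 (0.82), Lef1 with Swsap1 (0.80) and Aagab (0.80), and Gata3 with Khsrp (0.80) and Dvl1 (0.80).

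The other transcription factors of the NK lineage gave no calls in the sorted cells. Of a list of 36, among them Nfil3, Runx3, Tox and Prdm1, 32 were tested in the subset table and limma called 0 in any of the 11 comparisons. At an unadjusted p under 0.05 there were 7 between TN and TP cells in WT and 8 in KO mice, against 12.5% and 6.43% of all genes. Their median log2 difference in the WT comparison was -0.04, beside -0.01 over all genes.

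Of 13 listed genes taken to mark mature NK cells, 9 were called lower and 0 higher in WT TN than in WT TP cells. Whether the list tracks maturity in these cells was not tested. Of all genes 1.31% were called, and the median log2 difference of the 13 was -0.38. The 3 with the lowest p were Klrg1, an inhibitory lectin-like receptor (-2.63, adjusted p = 3.41e-09), Cx3cr1, a chemokine receptor (-2.23, adjusted p = 3.94e-06), and Cd226, which encodes DNAM-1 (-2.35, adjusted p = 1.71e-05). In KO mice 4 of 13 were called lower (0.524% of all genes called), led by Klrg1 (-1.65, adjusted p = 2.02e-06), Ly6c2 (-1.21, adjusted p = 0.000182) and Cx3cr1 (-1.57, adjusted p = 0.000316). Of 14 genes of immature NK cells, 3 were higher in WT TN than TP cells, among them Ctla2a (0.96, adjusted p = 6.06e-05) and Cd27 (0.97, adjusted p = 0.000527), and 1 was lower, Thy1 (-2.13, adjusted p = 0.000626). In KO mice 2 of 14 were higher, among them Ctla2a (0.92, adjusted p = 0.000150). The sort took cells negative for CD27 protein, and Cd27 mRNA was 97.3 ± 17.8 TPM in WT TP and 189.5 ± 17.8 TPM in WT TN cells.

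A list of 10 genes linked to circulation or to Klf2, T-bet or Zeb2 also holds Klrg1 and Cx3cr1, so it shares members with the lists above, and Klrg1 is a maturity marker rather than a homing receptor. Of 8 tested, 2 were called higher and 4 lower in TN than in TP cells of WT mice (1.31% of all genes called). S1pr1, the sphingosine phosphate receptor that Klf2 is known to promote, was 1.05 higher on the log2 scale in TN cells (adjusted p = 0.000152), although Klf2 itself was not called. In TP cells of KO against WT mice 2 were called higher, the chemokine receptor gene Cxcr4 (3.24, adjusted p = 5.93e-09) and S1pr1 (1.61, adjusted p = 1.23e-06), and 3 lower, with the lowest p for Klrg1 (-1.61, adjusted p = 2.25e-06), where 1.59% of all genes were called. S1pr1 measured 42.4 ± 7.03 TPM in WT TP and 131 ± 13.9 TPM in KO TP cells, while Klf2 measured 579 ± 50.6 and 577 ± 23.3 TPM in the same cells.

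Ionomycin, which raises intracellular calcium without receptor signals, was compared with vehicle after 22 h. Limma called 0 of 10 members (background 2.91% of 14372 genes). Eomes and Lef1, 2 of 10, had an unadjusted p under 0.05 (background 15.1%) and did not overlap between groups (background 20.1%). Eomes measured 160.2, 322 and 431 TPM with vehicle and 587, 801 and 710.1 TPM with ionomycin (log2 difference 1.30, SE 0.34, adjusted p = 0.0959). Leaving out vehicle replicate 3 gave 1.61 and a call (adjusted p = 0.0263). Lef1 measured 45.9, 60.9 and 119 TPM with vehicle and 23.7, 25.3 and 9.50 TPM with ionomycin (-1.89, SE 0.48, adjusted p = 0.0812). The ratio of Eomes to Tbx21 was 3.33 ± 0.277 with ionomycin and 1.595 ± 1.05 with vehicle, with no overlap.

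The vehicle libraries differed widely among themselves. Tcf7 measured 11.5, 114 and 405 TPM in the 3 vehicle and 44.3, 88.3 and 122 TPM in the 3 ionomycin libraries, so that replicate 3 was the highest in each group. Klf2 was 94.8, 276 and 367 TPM with vehicle and 127, 129 and 109.9 TPM with ionomycin, and without vehicle replicate 1 it was called lower (-1.38, adjusted p = 0.0131). Tbx21 was close in the 2 groups, at 208 ± 57.6 and 209 ± 15.3 TPM. Id2 ran from 794 to 2018 TPM, Irf8 from 714 to 1601 TPM, Ets1 from 528 to 771 TPM, Zeb2 from 35.5 to 109 TPM and Gata3 from 40.1 to 89.8 TPM over the 6 libraries, with overlapping groups. The 9 NK genes summed to 8390 to 14528 TPM with vehicle and to 5858 to 7453 TPM with ionomycin. The 8 T cell genes summed to 17.45 to 36.5 against 67.7 to 94.3 TPM, and the 6 genes of type 1 innate lymphoid cells to 74.9 to 107 against 42.5 to 68.95 TPM. A list of 7 dendritic cell genes summed to 67.85 to 87.4 TPM with vehicle and to 44.95 to 64.3 TPM with ionomycin. Neutrophil genes summed to 349 TPM in vehicle replicate 3, with 5 of 7 above 1 TPM, and to 119 TPM in ionomycin replicate 3, against at most 2.19 TPM in the other 4 libraries. Their part in these values was not tested.

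Of the 36 other factors, 34 were tested here, and 3 were higher and 1 lower with ionomycin. These 4 are named after their values were seen. The Ikaros family members Ikzf1 (1.01, adjusted p = 0.0215), Ikzf2 (2.18, adjusted p = 0.0221) and Ikzf3 (1.37, adjusted p = 0.0420) rose, and Runx3, a Runt factor of cytotoxic lymphocytes, fell by 1.98 on the log2 scale (adjusted p = 0.00572).

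The antibody experiment carries a conflict in its labels. For 6 of 9 samples, the title gives a different group from the column of the table to which the description points. Column names were followed, since they are attached to the values. When the titles were followed instead, limma again called 0 members in any of the 3 comparisons, and the members with an unadjusted p under 0.05 were other ones, Lef1 for NKp46+NKG2D against medium (-0.71, adjusted p = 0.966) and Eomes (-0.30) and Gata3 (-0.66, both with an adjusted p of 0.581) for NKp46+DNAM-1 against medium. Eomes (-0.49) and Gata3 (-0.66) also did so between the antibody pairs (adjusted p = 0.940 for both). The differences of NKp46+NKG2D and NKp46+DNAM-1 from medium were then -0.43 and -0.90 for Klf2, 0.26 and 0.22 for Irf8 and 0.01 and 0.08 for Ets1. All antibody values that follow, and which groups overlap, rest on the column names.

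Against medium, limma called 0 of 10 members with NKp46+NKG2D (background 0.431% of 13689 genes) and 0 with NKp46+DNAM-1 (background 0.782%). At an unadjusted p under 0.05 there were 3 and 4 members, against 15.1% and 18.0% of all genes. The groups did not overlap for 5 members with NKp46+NKG2D (background 17.3%) and for 4 with NKp46+DNAM-1 (background 21.1%). These 2 comparisons share the medium libraries. Between the 2 antibody pairs, limma called 0 members and 0 had an unadjusted p under 0.05 (background 0.0146% and 1.22%).

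Klf2 had the largest differences. It measured 84.4, 51.5 and 42.5 TPM in medium, 35.2, 28.4 and 20.4 TPM with NKp46+NKG2D and 28.6, 23.3 and 14.3 TPM with NKp46+DNAM-1, and both antibody groups lay under all medium libraries. The log2 differences were -1.03 (SE 0.32, adjusted p = 0.195) and -1.38 (SE 0.32, adjusted p = 0.0906). Without medium replicate 3 the latter was -1.59 and was called (adjusted p = 0.0401). Irf8 measured 443, 637 and 541 TPM in medium, 786, 831 and 867 TPM with NKp46+NKG2D and 719, 810.5 and 839 TPM with NKp46+DNAM-1, again without overlap. Its differences were 0.63 (adjusted p = 0.0773) and 0.56 (adjusted p = 0.0755), and both were called without medium replicate 2 (0.76, adjusted p = 0.0279, and 0.69, adjusted p = 0.0381).

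Ets1 measured 425, 436 and 399.6 TPM in medium, 503, 526 and 585 TPM with NKp46+NKG2D and 514, 492 and 551 TPM with NKp46+DNAM-1 (0.35 and 0.30, adjusted p = 0.129 and 0.128). Tcf7 was 242, 236 and 263 TPM in medium, 232, 199.7 and 132 TPM with NKp46+NKG2D and 203, 194 and 126 TPM with NKp46+DNAM-1, where the difference was -0.53 (adjusted p = 0.252). All antibody libraries lay above medium for Ets1 and under medium for Tcf7. Zeb2 was 96.9, 102 and 53.8 TPM in medium, 51.8 ± 1.21 TPM (SD, n = 3) with NKp46+NKG2D and 79.3, 40.1 and 45.1 TPM with NKp46+DNAM-1, and medium overlapped only the last group. The 2 T-box factors and Id2 overlapped between all 3 groups. Tbx21 means lay between 115 and 124 TPM, Eomes means between 356 and 381 TPM and Id2 means between 1375 and 1407 TPM. Gata3 and Lef1 libraries ran from 33.2 to 80.4 and from 60.6 to 165 TPM, also with overlap. A list of 10 immediate early and heat shock genes summed to 2331 to 3617 TPM in medium and to 571 to 716 TPM in the antibody libraries, a list of 6 genes of type 1 innate lymphoid cells to 74.7 to 84.6 against 27.3 to 70.5 TPM, and 8 B cell genes to 184 to 220.4 against 123 to 179 TPM. The medium libraries also had fewer genes above 0 (13555 to 14674 against 16107 to 18096), and the part of all of these in the differences from medium was not tested. Of 33 other NK lineage factors tested, limma called 0 with either antibody pair. At an unadjusted p under 0.05 there were 4 and 6, near the shares over all genes (15.1% and 18.0%).

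**Figure D4:**
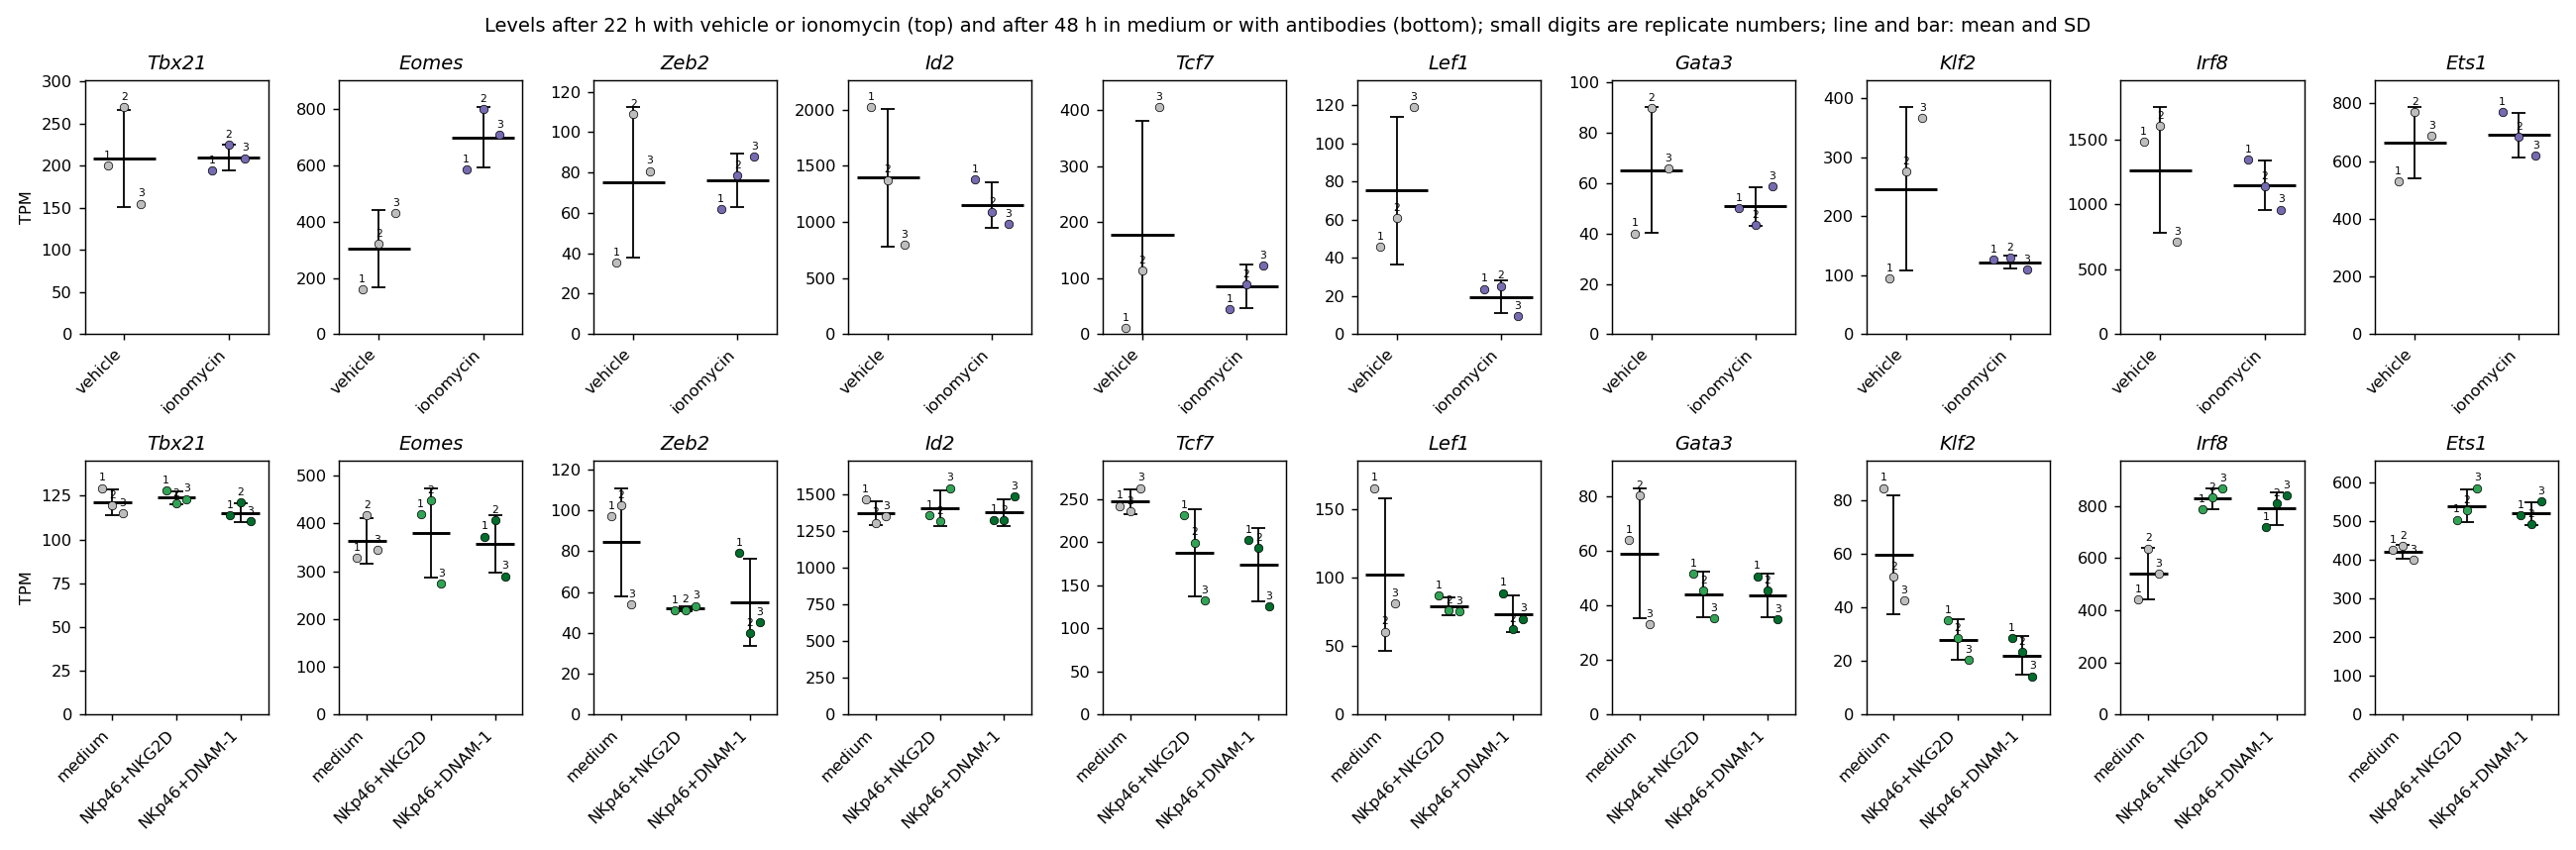
Level (TPM, linear axes from 0) of the 10 factors in cultured splenic NK cells, after 22 h with vehicle or ionomycin (top) and after 48 h in medium or on antibodies (bottom), 1 point per library marked with its replicate number, with mean and SD of 3. Eomes with ionomycin lies above and Lef1 under all vehicle libraries, and Klf2 on antibodies lies under all medium libraries.

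NK cells from the MC38 tumours formed 1 group with no control in its table, so its levels are given without a test. The labels give the host genotype as WT and name no receptor subset, whereas the columns of this table are named B2MKO and SP. The labels were followed. B2m measured 3929 to 5196 TPM in these libraries, a level not compared with the spleen libraries, which stand in another table. B2m transcripts were thus present in these libraries, whereas the receptor subset stays in doubt. Id2 was the most abundant factor at 1939, 1987 and 1552 TPM, followed by Irf8 at 1247, 1294 and 885 TPM and Eomes at 644, 572 and 653 TPM. Ets1 (498, 453 and 337 TPM) and Klf2 (216, 247 and 304 TPM) came next, and their ranges did not overlap each other. Klf2 in turn overlapped Tbx21 (242, 184 and 174 TPM), which overlapped Tcf7 (208, 158 and 196 TPM). The lowest were Zeb2 at 70.9 ± 15.9 TPM, Gata3 at 65.02 ± 16.4 TPM and Lef1 at 46.2 ± 7.86 TPM. Gata3 overlapped both Zeb2 and Lef1, while Zeb2 and Lef1 did not overlap each other. The ratio of Eomes to Tbx21 was 3.17 ± 0.548 (SD, n = 3). The same list of immediate early and heat shock genes summed to 4796 to 10362 TPM in these libraries, genes of epithelial tumour cells to at most 4.89 TPM and erythroid genes to 0 to 335 TPM. The 7 genes of monocytes and macrophages summed to 18.9 to 72.1 TPM, with 3 to 6 of them at 1 TPM or more. A list of 7 dendritic cell genes summed to 22.7 to 45.3 TPM. Their part in these levels was not tested.

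**Figure D5:**
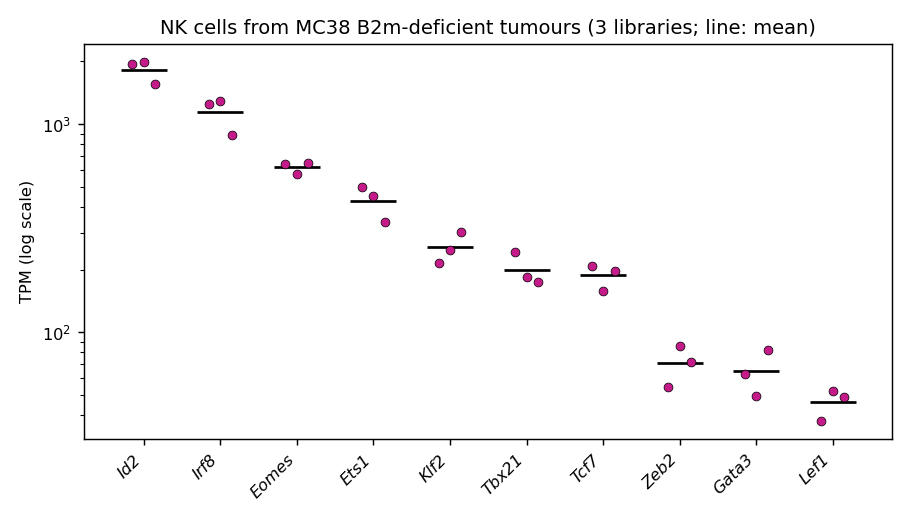
Level (TPM, logarithmic axis) of the 10 factors in CD27-CD11b+ NK cells from MC38 B2m-/- tumours, ordered by mean, 1 point per library and a line at the mean of 3. Id2 is highest at a mean of 1826 TPM and Lef1 lowest at 46.2 TPM.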

How the data were processed

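RNA of mouse NK cells was sequenced in 36 samples, with 1 library each, in 12 groups of 3. Per the labels' protocols, total RNA was extracted with a miRNeasy Micro kit and libraries were made with a KAPA mRNA HyperPrep kit. The authors deposited 4 tables of TPM. The submitters' processing notes name STAR, RSEM and build GRCm39, with versions not given in the sources used here. Because the annotation in hand is of GRCm38, genes are given by symbol, and only the promoter windows carry coordinates.

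TPM keep no depth, so precision rests on the spread over replicates, and p-values measure only the spread between these samples. Groups were compared only within a table. Tests covered the genes whose mean over a table reached 1 TPM (12018, 14372 and 13689), and all 10 members passed in each. Limma 3.58.1 in R 4.3.3 was fitted to log2(TPM + 1), which understates changes of low genes, with a mean per group and an intensity trend in the variance, two-sided, with Benjamini-Hochberg adjustment within each of 15 comparisons. With 3 samples against 3 an exact permutation test cannot give a p under 0.1. The scripts were tested on simulated data. The alternatives were a pseudocount of 0.1 TPM, no filter, median-of-ratios rescaling, no trend, the 2 compared groups alone, the replicate number as a block, each library left out and, for the antibody table, groups from the sample titles.

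The members and gene lists were chosen with earlier results of these data known. All 10 members are named, with a log2 difference where the unadjusted p was under 0.05. Of each list, up to 3 called genes with the lowest p are named where a member was called, and for each member the 2 most correlated genes, apart from results that are not reported here. Promoter windows are the 250 bases before each RefSeq start.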

Additional observations from a re-analysis of the deposited data

How the results depend on the processing

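Of the 9 called member differences, 3 were called in every alternative run (Eomes between TN and TP in WT, Id2 and Tcf7 between TN and TP in KO mice). All 9, and the 40 uncalled differences with an unadjusted p under 0.05, kept their direction throughout. Of 192 recomputed counts of called members, 167 stayed within 1.5 times the main count and 25 did not. Fitting only the 2 compared groups left 1 called member between TN and TP in WT, and 0 between TN and SP in WT, between TN and SP in KO mice, and between genotypes in TP and in SP cells. Without the intensity trend, 0 were called between TN and SP in KO mice and between genotypes in SP cells, and median-of-ratios rescaling gave 3 between genotypes in TP cells. Leaving out each library in turn gave 0 to 1 called members between TN and SP in KO mice, between genotypes in SP and in TN cells, for ionomycin and for each antibody pair against medium. For these changes the cause was not tested beyond the fewer samples that the 2-group and left-out fits hold.

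Replicate numbers were not taken to pair the samples in the main fits. Column names in the subset and antibody tables join this number to the genotype. Whether a shared number marks a shared mouse was not tested. Correlations were taken between libraries of different groups after the group mean of each gene was subtracted, so they describe deviations and not whole libraries. On these deviations, same-numbered libraries correlated over 0.1 in 0 of 18 subset, 1 of 3 ionomycin and 1 of 9 antibody pairs. Their mean correlation was 0.010, 0.062 and 0.064 in these 3 tables. Between libraries of other numbers the mean was -0.005, -0.031 and -0.032. In the same order, 11 of 18, 5 of 6 and 7 of 9 libraries correlated best with a library of their own number. With the replicate number as a block, limma called 1 member between SP and TP in WT (Eomes, adjusted p = 0.0138), 2 between TN and SP in WT (Eomes, adjusted p = 0.0367, beside Id2), 1 for ionomycin (Eomes, adjusted p = 0.0360) and 2 for each antibody pair against medium. The last were Klf2 (adjusted p = 0.0263 with NKp46+NKG2D and 0.00812 with NKp46+DNAM-1) and Irf8 (0.0204 and 0.0184). The block also called Tbx21 between TN and TP in WT (adjusted p = 0.00903) and Eomes between TN and TP in KO mice (adjusted p = 0.0191). TPM give no depth, so small differences of the low members Lef1 and Gata3 were limited by replicate spread.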
